A study of Mus musculus with 2 samples.

Results

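The genes that build MHC class I molecules and load them with peptide were compared between B cells that carry human AIRE as a transgene and B cells that do not. The set was 10 mouse genes, on an array where 18193 genes had a probe set of their own, and its probe sets were chosen by symbol: every probe set was taken that the platform annotation gives to 1 of them and to no other gene. That gave 25 of the 45037 non-control probe sets, for 8 of the 10 genes. A further 6 probe sets list a member together with other genes and are given apart, and H2-T23 and H2-Q7 were read by such probe sets alone. Probe set names carrying _x_, which the array's maker uses for sequence that may bind other transcripts, made up 12 of the 25, all in H2-K1, H2-D1 and Tap1, so the heavy chain values cannot be assigned to 1 gene with certainty.

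Both groups were mice of the NOD strain, which is prone to autoimmune diabetes, aged 8 weeks, and the sorted cells were B220-positive B cells negative for Thy1 and CD11c. One group was AIRE transgenic: its human AIRE was driven by an MHC class II promoter, and such promoters work in antigen-presenting cells in general and not in B cells alone. AIRE is the regulator that lets thymic epithelium express genes of other tissues. The other group was non-transgenic. No probe set was shown to read the human transcript, so the labels were not checked by the transgene itself. Each group was 1 Affymetrix array of RNA from 2 mice, so a replicate check, a standard error and a p-value are lacking for each difference, and every ratio describes these 2 arrays.

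MHC class I molecules are carried by nearly all nucleated cells. A heavy chain (H2-K1 and H2-D1 encode the classical ones in the mouse) folds with beta-2 microglobulin in the endoplasmic reticulum and is held there until a peptide fits. Peptides cut by the proteasome are pumped in by the transporter TAP and trimmed by the peptidase ERAP1, while tapasin holds the empty heavy chain beside the transporter. NLRC5 is the transactivator of the class I genes, as CIITA is of class II, and acts through a promoter module that holds a TGACG-like element and an inverted CCAAT element, with upstream sites for NF-kB and interferon regulatory factors. NOD mice carry the Kd and Db alleles of the heavy chains. The sequences shown next are those of another strain, C57BL/6J, and serve to show the promoter layout.

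The bases just before the start sites of H2-D1, H2-Q7 and B2m are shown because they hold that module and the 3 genes gave differing ratios, and those of Tap1 because the transporter gene lies back to back with Psmb9. All are RefSeq sequences of build GRCm38.p6, plus strand. Capitals mark, on either strand, the NF-kB motif GGGATTCCC, the interferon response motifs GAANNGAAA and a pair of GAAA with 2 bases between, TGACG, and CCAAT, which reads ATTGG when inverted.
H2-D1, chr17:35262844-35263093: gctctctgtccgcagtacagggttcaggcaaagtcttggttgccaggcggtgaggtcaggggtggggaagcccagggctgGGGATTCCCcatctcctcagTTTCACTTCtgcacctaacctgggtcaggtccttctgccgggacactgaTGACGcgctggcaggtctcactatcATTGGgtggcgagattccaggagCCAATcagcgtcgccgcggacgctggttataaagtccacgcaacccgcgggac
H2-Q7, chr17:35438905-35439154: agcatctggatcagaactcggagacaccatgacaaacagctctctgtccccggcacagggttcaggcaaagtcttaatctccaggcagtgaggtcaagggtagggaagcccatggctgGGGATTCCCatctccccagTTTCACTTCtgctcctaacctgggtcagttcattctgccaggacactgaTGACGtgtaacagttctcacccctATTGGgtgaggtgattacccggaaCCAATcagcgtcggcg
B2m, chr2:122147437-122147686: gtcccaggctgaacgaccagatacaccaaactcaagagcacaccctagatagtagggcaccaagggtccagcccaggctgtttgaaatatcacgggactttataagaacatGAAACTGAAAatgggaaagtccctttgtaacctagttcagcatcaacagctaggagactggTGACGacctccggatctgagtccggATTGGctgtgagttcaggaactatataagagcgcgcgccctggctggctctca
Tap1, chr17:34187331-34187555, the gap from the Psmb9 start to the Tap1 start: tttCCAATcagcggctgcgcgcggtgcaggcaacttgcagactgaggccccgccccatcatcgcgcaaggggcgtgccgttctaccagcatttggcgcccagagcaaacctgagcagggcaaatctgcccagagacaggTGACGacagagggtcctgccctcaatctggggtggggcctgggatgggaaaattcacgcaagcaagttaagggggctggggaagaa

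Of the 10 members, 8 had a window of 300 bases in the RefSeq table, from 250 before the start site to 50 after it. The motif GGGATTCCC was found in 3 of these windows (H2-K1, H2-D1 and H2-Q7) and in 0.353% of all 32851 windows. TGACG followed by ATTGG with 15 to 25 bases between was found in 4 (H2-K1, H2-D1, H2-Q7 and B2m), counted in that order only. Counted on either strand, the pair was found in 0.435% of all windows. The spacing was 20 bases in H2-K1, H2-D1 and B2m and 19 in H2-Q7. The range of spacings was set after these windows had been read, and H2-K1, H2-D1 and H2-Q7 are related copies, so their matches are not independent. The paired GAAA was found in B2m, Erap1 and H2-T23 (3.44% of all windows) and GAANNGAAA in H2-K1, H2-D1 and H2-Q7 (7.52%). TGACG alone was found in 5 of the 8 (20.8% of all windows) and CCAAT in 7 (37.4%). These are matches of letters and not shown to be sites in use.

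The comparison asked whether B cells with the AIRE transgene differ in their class I genes. As deposited, class I heavy and light chains mostly had somewhat lower intensities on the transgenic array, while the transporter gene Tap1 and the transactivator gene Nlrc5 had higher ones, and almost all differences were well under 2-fold. Intensities are given as deposited. Each ratio is the log2 of the transgenic value over the other, after raising anything under a floor of 25 to that floor. Probe sets passed the filter where the higher of the 2 values was at least 98.8, the median of all probe sets. Of the 25 member probe sets, 20 passed this filter, from all 8 genes. Their median log2 ratio was -0.24, against -0.03 over all 24005 probe sets that passed. A positive ratio was found in 6 and a negative one in 14, where 47.8% of all probe sets above the filter were positive and 52.2% negative. At least 2-fold higher were 0 of the 20, where 2.89% of all probe sets were, and at least 2-fold lower was 1, where 6.17% were. In either direction 9.06% of all probe sets were at least 2-fold apart.

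Brightness went with the ratio on these arrays, and it bears on the class I chains because they were among the brightest. The 507 probe sets with a mean of 10000 or more had a median log2 ratio of -0.29, and 25.8% of them were positive. The middle 90% of their ratios ran from -0.73 to 0.36. The 8 member probe sets this bright, from H2-K1, H2-D1 and B2m, had a median of -0.28, and without the members the bright probe sets still had -0.29. Between 1000 and 3000 the median over all probe sets was 0.07, and between 3000 and 10000 it was 0.08. The lower values of the bright class I chains were thus of the size found in bright probe sets in general.

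**Figure D1:**
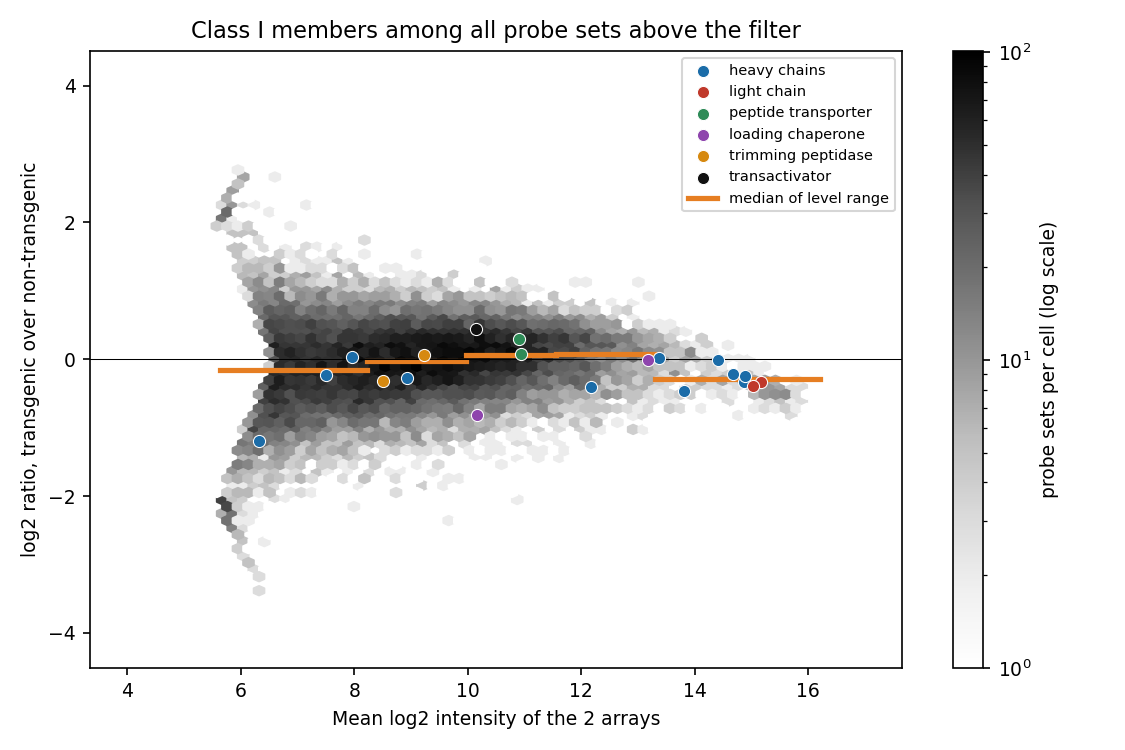
Each probe set above the filter is placed by its mean log2 intensity (horizontal) and its log2 ratio of transgenic over non-transgenic (vertical); grey cells count all 24005, coloured points are the 20 class I member probe sets by role, and orange lines are medians within ranges of intensity. The bright heavy and light chain points lie around the orange line of the brightest range, at -0.29, and Nlrc5 and Tap1 lie above the lines of theirs.

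H2-K1 encodes the heavy chain of the K molecule, and its 4 probe sets all passed the filter. The probe set 1425336_x_at read 26824 with the transgene and 33637 without it (-0.33). The probe set 1427746_x_at read 12249 against 16918 (-0.47), and the dim 1450534_x_at read 442 against 533 (-0.27). The fourth, 1451931_x_at, was all but equal on the arrays, at 21832 against 21886 (-0.0036). The 4 ratios of this 1 gene thus spanned 0.46 on the log2 scale, and none reached 2-fold.

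H2-D1, the heavy chain of the D molecule, had 9 probe sets, of which 7 passed. The brightest range held 1425545_x_at, at 27935 against 32959 (-0.24), 1451784_x_at, at 24364 against 28270 (-0.21), and 1451683_x_at, at 10691 against 10553 (0.02). The H2-D1 probe set that passed without a mark for shared sequence, 1426324_at, read 4008 against 5330 (-0.41), below all but 14.1% of the probe sets between 3000 and 10000. Of the dimmer ones, 1425614_x_at read 253 against 248 (0.03) and 1450170_x_at read 168 against 197 (-0.23). H2-D1 therefore had both signs, with the negative ones more often, and its brighter probe sets differed by at most 1.33-fold.

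The 1 member probe set at least 2-fold lower was also an H2-D1 probe set, 1427651_x_at, which read 52.7 with the transgene and 121 without it, 2.29-fold lower. Its transgenic value lay under the filter, and its non-transgenic value not far above it. Just under the filter lay 1452544_x_at, at 43.9 against 97.6. Further under it lay 1451934_at, at 3.8 against 51.6, with the former value below the floor. Of the probe sets under 300 that passed, 18.2% were at least 2-fold apart in either direction. No H2-D1 probe set read a 2-fold difference at an intensity above the filter on both arrays.

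B2m encodes beta-2 microglobulin, the light chain that every class I heavy chain needs. Its 2 probe sets read 32654 against 41289 (-0.34) and 29041 against 37934 (-0.39). They differed from each other by 0.05 on the log2 scale. Among the 2850 genes with 2 probe sets above the filter, 5.96% had a smaller difference, and the median was 0.42. The B2m pair thus repeated closely, at 1.26-fold and 1.31-fold lower. They were above 42.4% and 37.1% of the probe sets with a mean of 10000 or more, a little under the middle of them. That range is wide, and B2m lay well above its lower edge.

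**Figure D2:**
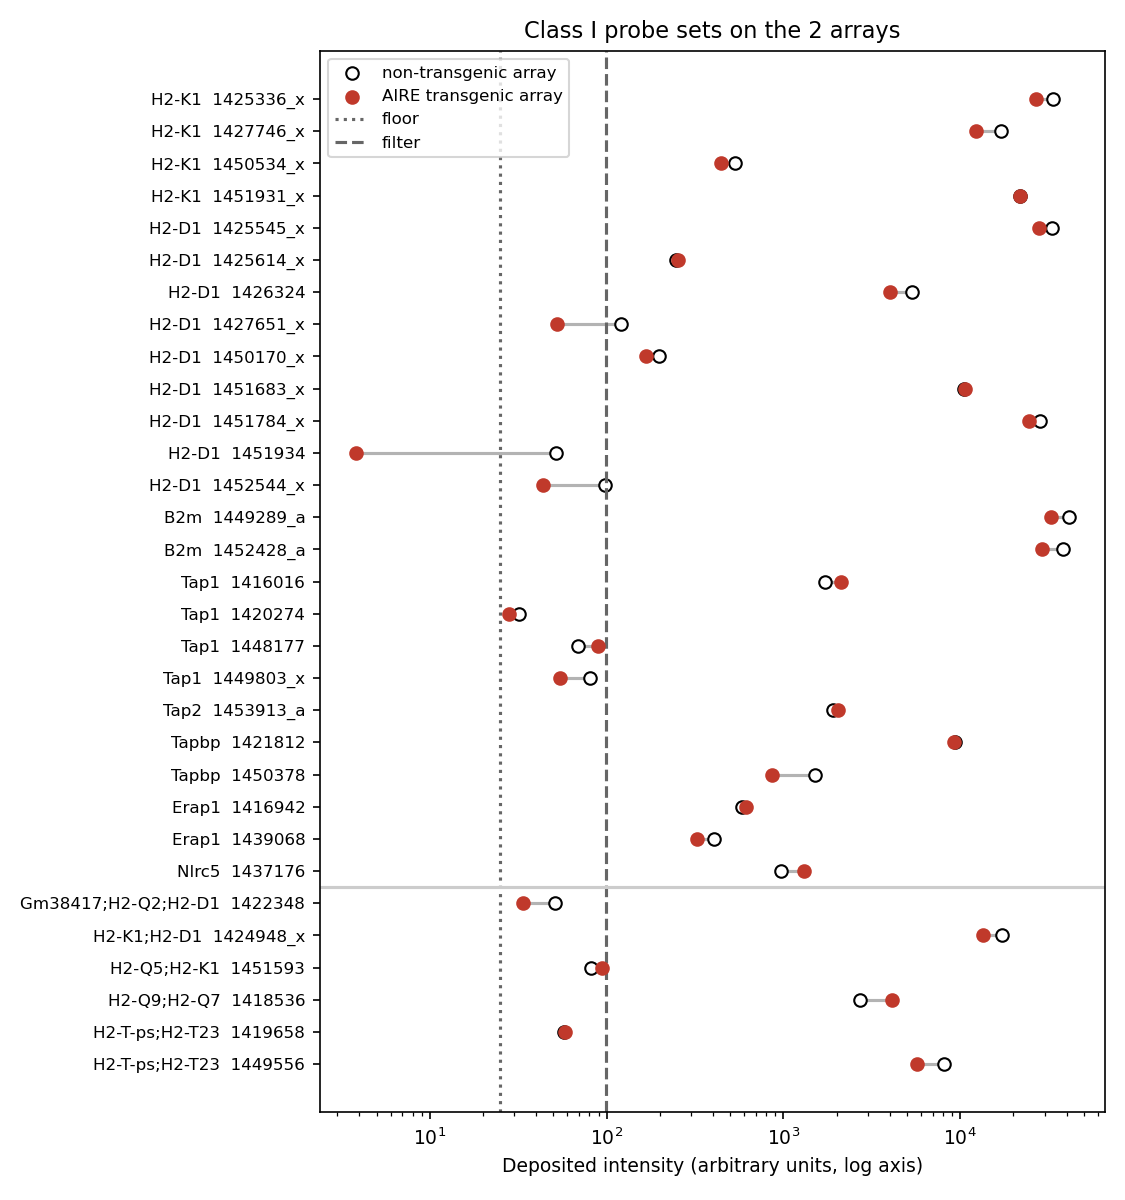
Deposited intensity on a log axis (arbitrary units) for each of the 25 member probe sets and, under the line, the 6 that list several genes; filled points are the transgenic and open points the non-transgenic array, with the floor (25) dotted and the filter (98.8) dashed. Open points lie to the right for B2m and most H2-K1 and H2-D1 probe sets, and to the left for Nlrc5 and the bright Tap1 probe set.

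The remaining heavy chain genes were read only together with relatives. H2-Q7 encodes a nonclassical chain of the Qa-2 group, and its probe set, which lists H2-Q9 too, read 4093 with the transgene and 2729 without it. The log2 ratio was 0.58, above 94.3% of the probe sets between 3000 and 10000. H2-T23 encodes Qa-1, a nonclassical chain that presents leader peptides of other class I molecules to natural killer cell receptors. Its probe set 1449556_at, which lists the pseudogene H2-T-ps too, read 5728 against 8136 (-0.51), above 10.5% of the probe sets in that range. The Qa-2 and Qa-1 probe sets, alike in intensity range, thus stood toward opposite ends of it. The second H2-T23 probe set, 1419658_at, was under the filter at 57.9 against 57.7. The probe set listing both H2-K1 and H2-D1 read 13425 against 17310 (-0.37), within the span of the bright H2-K1 probe sets and below all 3 bright H2-D1 ones. The other 2 were under the filter: the one shared by H2-Q5 and H2-K1 read 94.3 against 81.8, and the one shared by Gm38417, H2-Q2 and H2-D1 read 33.6 against 51.2.

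Tap1 and Tap2 encode the paired subunits of the peptide transporter. Tap1 had 1 of its 4 probe sets above the filter, 1416016_at, at 2129 with the transgene against 1727 without it (0.30). The others read 89.0 against 69.3, 54.2 against 80.9 and 27.9 against 31.9, and being under the filter they say little of either sign. Tap2 had 1 probe set, at 2030 against 1917 (0.08). Both transporter ratios were positive, and 74.8% of the probe sets between 1000 and 3000 lay below Tap1 and 51.5% below Tap2. Tap2 was therefore in the middle of its range and Tap1 in its upper part.

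Tapbp encodes tapasin, which bridges the transporter and the empty heavy chain, and its 2 probe sets disagreed. The first, 1421812_at, read 9236 against 9306 (-0.01), while 1450378_at read 859 with the transgene against 1513 without it (-0.82). The latter was 1.76-fold lower, and only 3.52% of the probe sets between 1000 and 3000 lay below it. The 2 ratios lay 0.81 apart, a difference smaller than this in 78.8% of genes with 2 probe sets. Which of them stands for the tapasin transcript cannot be told from these values.

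Erap1 encodes the aminopeptidase that trims peptides in the endoplasmic reticulum. Its probe sets read 611 against 585 (0.06) and 325 against 403 (-0.31). The signs differed, and the gap of 0.38 was below the median gap of genes with 2 probe sets.

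Nlrc5, the class I transactivator, had the highest ratio of the 25 probe sets. Its only probe set read 1313 with the transgene and 964 without it, 1.36-fold higher (0.45). Of the probe sets between 1000 and 3000, 86.0% lay below it. The heavy chains and B2m, which NLRC5 is known to control, mostly had the other sign as deposited: over the 13 of their probe sets above the filter the median was -0.27, with 2 positive. The median of these 13 moved with the scaling, to -0.11 with 3 positive at equal array medians, where Nlrc5 was 0.61. It was -0.0058 with 6 positive after quantile normalization (Nlrc5 0.43) and -0.04 with 5 positive after loess (Nlrc5 0.41). Equal array medians raised all these ratios alike, so the gap to Nlrc5 shrank only after quantile normalization and loess. Over the 7 probe sets of the loading genes and Nlrc5 the median was 0.06 as deposited, with 4 positive, and 0.04 to 0.23 over the other scalings. The difference between these groups was not tested, and many of the chain probe sets lay in the brightest range, where most ratios were negative.

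**Figure D3:**
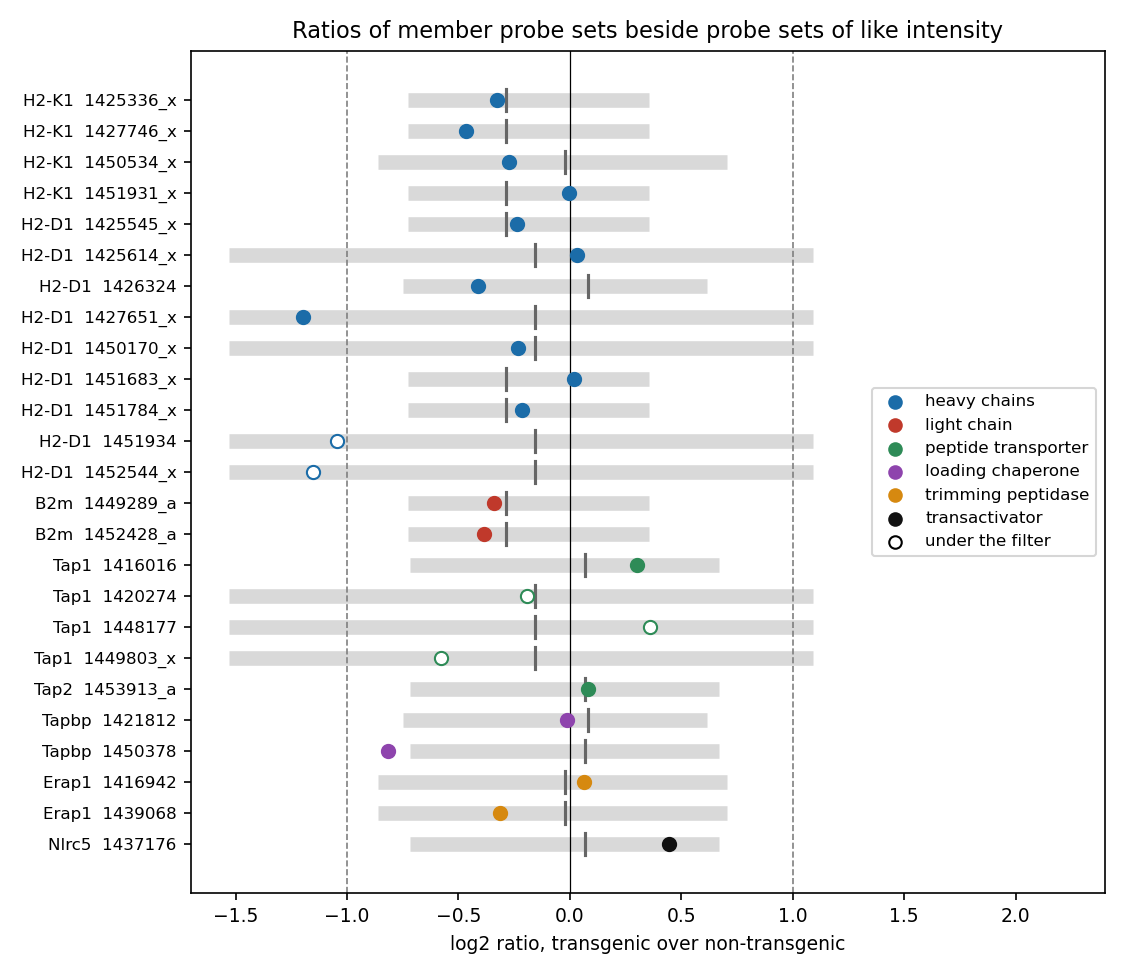
log2 ratio of transgenic over non-transgenic for each of the 25 member probe sets, coloured by role and open where under the filter; the grey bar is the middle 90% of all probe sets in the same range of intensity, the tick in it their median, and the dashed lines mark 2-fold. Only the Tapbp probe set at -0.82 lies outside its grey bar, and Nlrc5, at 0.45, lies inside but toward its upper end.

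The sign of several members depended on how the arrays were scaled. The deposited medians differed, and setting them equal raised the median of all probe sets by 0.18, so that 1130 probe sets were at least 2-fold higher and 970 lower, against 694 and 1481 as deposited. Of the 20 members above the filter, 14 were negative as deposited, 12 with equal medians, 9 after quantile normalization and 10 after loess. B2m went to 0.08 and -0.01 after quantile normalization and to -0.02 and -0.08 after loess. The H2-D1 probe sets 1425545_x_at and 1451784_x_at turned positive both after quantile normalization (0.11 and 0.10) and after loess (0.05 and 0.04). By contrast, Nlrc5 lay between 0.41 and 0.61, Tap1 between 0.24 and 0.47, and the lower Tapbp probe set between -0.85 and -0.65 over the 4 scalings. The H2-D1 probe set 1426324_at (-0.45 to -0.25) and the H2-K1 probe set 1427746_x_at (-0.47 to -0.30) stayed negative over them. Among the chains, 1425336_x_at and 1450534_x_at of H2-K1, 1450170_x_at and 1427651_x_at of H2-D1 and 1452428_a_at of B2m also stayed negative. Of these, 1425336_x_at came close to equal after quantile normalization, at -0.0058, as did 1452428_a_at, at -0.01.

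**Figure D4:**
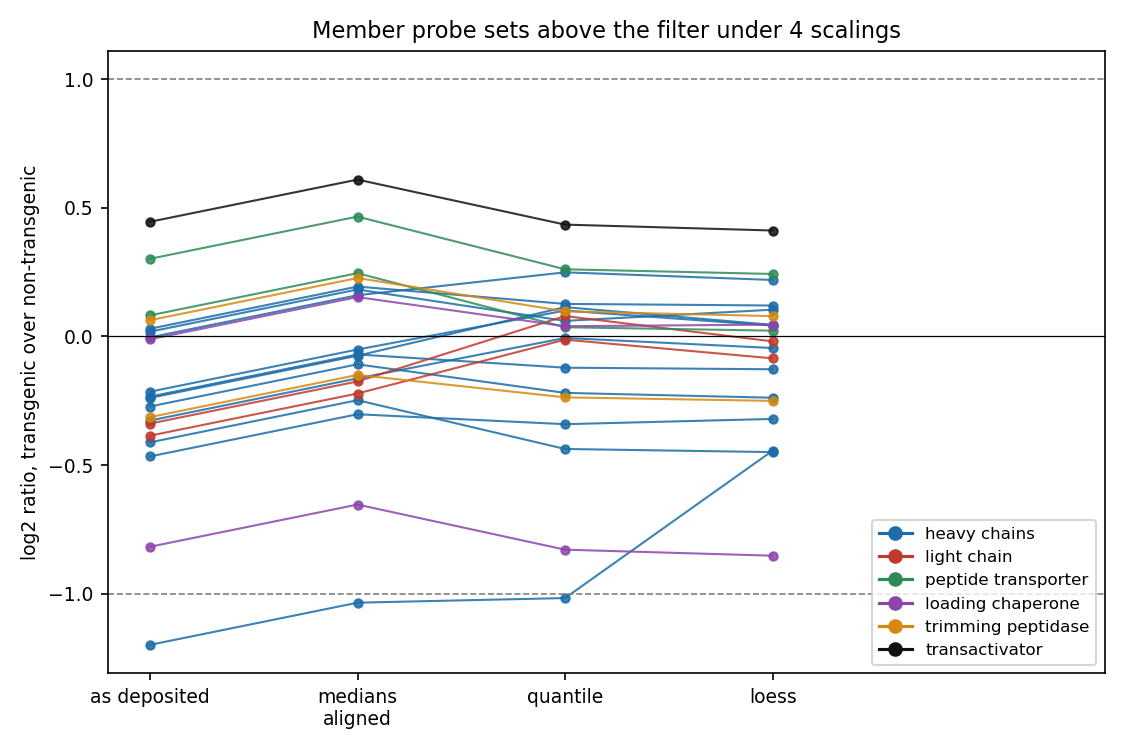
log2 ratio of transgenic over non-transgenic for each of the 20 member probe sets above the filter, joined across 4 scalings of the arrays and coloured by role; dashed lines mark 2-fold. The red B2m lines and several blue heavy chain lines reach or cross 0 after quantile normalization or loess, while Nlrc5 and Tap1 stay above 0, and the dim H2-D1 probe set at -1.20 goes to -0.44 after loess.

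The rest of the pathway was read from a list of 61 genes, of which 47 had a probe set of their own symbol and the other 14 were not analysed here. Of their 91 probe sets 79 passed the filter, with a median log2 ratio of 0.0028, 40 positive and 39 negative. At least 2-fold higher were 0 and at least 2-fold lower 5, beside the 2.89% and 6.17% of all probe sets. These shares lie near or under those of the whole array.

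Among other class I and class I-like chains, 9 of 14 probe sets passed and their median was 0.09. Fcgrt, the neonatal Fc receptor that protects IgG from breakdown and also pairs with beta-2 microglobulin, read 370 with the transgene against 882 without it (-1.25). H2-T3, the gene of the thymus leukaemia antigen, read 48.2 against 146 (-1.59), with its other probe set below the floor on both arrays. The name of the former, 1452548_x_at, marks shared sequence, and its transgenic value lay under the filter. After loess its ratio was -0.91. As deposited, Fcgrt and H2-T3 were the only ones of the group 2-fold apart.

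Folding, loading and export helpers had a median of 0.02 over 26 probe sets, 14 of them positive. The only one 2-fold apart was 1 of 6 probe sets of Sec61a1, a subunit of the translocation channel, at 603 against 1223 (-1.02). Another probe set of the same gene read 4732 against 2969 (0.67), so Sec61a1 had no single direction.

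Proteasome subunits and activators had a median of -0.07 over 11 probe sets. Psme3, a subunit of the nuclear proteasome activator, read 940 against 2088 (-1.15), with another probe set at 746 against 927 (-0.31). Its remaining probe set, under the filter, had the other sign at 54.2 against 15.6, the latter value below the floor. Of the catalytic subunits of the immunoproteasome, singled out after their values were seen, Psmb9 and Psmb10 were close to equal. Psmb9, whose gene shares its promoter region with Tap1, read 4299 against 4507 (-0.07), and Psmb10 read 2865 against 2787 (0.04). Psmb8 read 7311 against 8644 (-0.24) by 1 probe set and 527 against 301 (0.81) by the other, whose name marks shared sequence. Psmb9, which starts from the other end of the gap printed above, was 0.10 with equal array medians, so its sign turned with the scaling, while that of Tap1 stayed positive.

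Other peptidases had a median of 0.04 over 11 probe sets with none 2-fold apart. The largest ratio in the group was in Tpp2, a cytosolic peptidase, at 1055 against 554 (0.93), which was 1.09 with equal array medians, and its other 4 probe sets ran from -0.19 to 0.63. Transcription factors of the class I promoters had a median of -0.05 over 22 probe sets. Rfxank, a subunit of the RFX complex that binds these promoters, had 1 probe set at 126 against 283 (-1.16), but its other 2 were at -0.20 and -0.05.

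**Figure D5:**
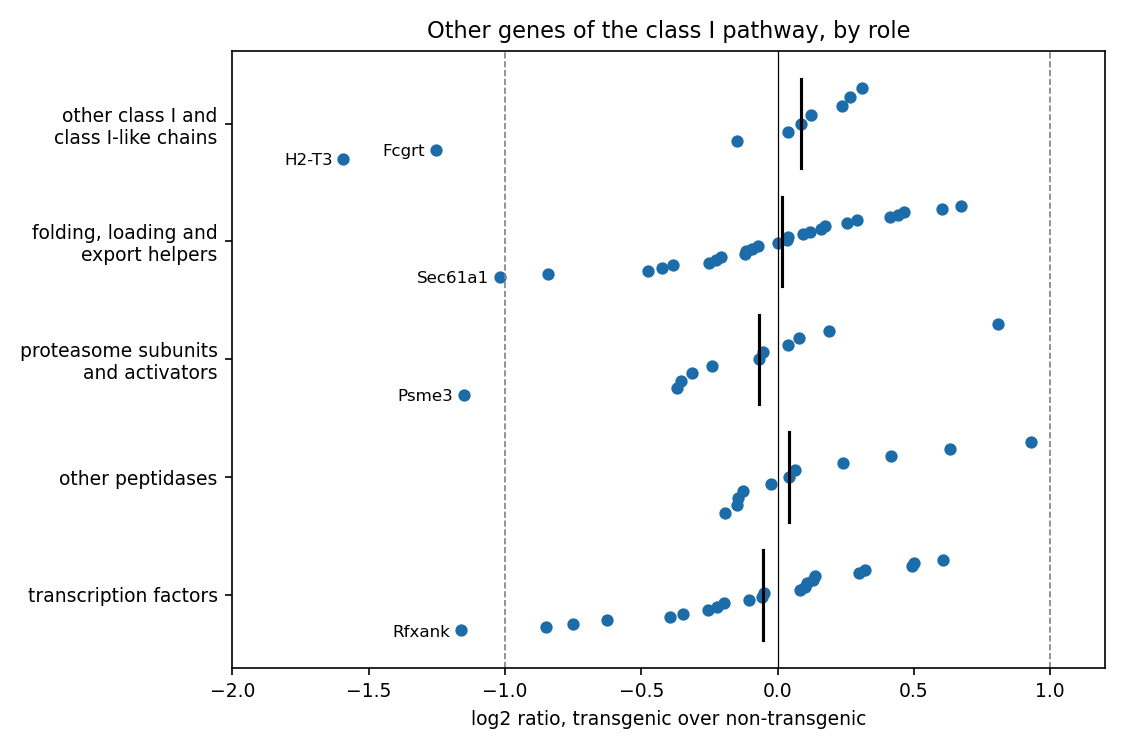
log2 ratio of transgenic over non-transgenic for the 79 probe sets above the filter from the wider class I pathway list, by role; black bars are group medians and dashed lines mark 2-fold. The group medians lie between -0.07 and 0.09, and the 5 probe sets at least 2-fold lower are named.

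Cell type markers were read on the same arrays because class I genes are expressed by every cell type a sort could hold. All 14 probe sets of 7 B cell markers were above the filter and lower on the transgenic array, with a median of -0.65 and a summed intensity of 124194 against 218779. The brightest, from Cd22, Cd79a, Cd79b and Ms4a1, lay at 10000 or more, where the median over all probe sets was -0.29. In that range 0.197% of probe sets lay below Cd79a, 2.56% below Cd22, 3.35% below Cd79b and 17.4% and 16.6% below those of Ms4a1. At least 2-fold lower were 4 of the 14 B cell probe sets, where 6.17% of all probe sets were. At equal array medians the Ebf1 probe set 1416302_at went to 0.05 and the others stayed negative. After quantile normalization and after loess all stayed negative. Natural killer cell markers had 7 of 10 probe sets higher and a summed intensity of 7646 against 5328. Those of T cells summed to 1386 against 1533 (7 of 12 probe sets above the filter), dendritic cells to 2842 against 3017 (6 of 10), myeloid cells to 19346 against 20419 (9 of 9), plasma cells to 21960 against 31323 (8 of 8) and stromal or epithelial cells to 337 against 525 (2 of 9). Both erythroid probe sets were below the floor on both arrays. These sums take in probe sets under the filter. Of those above it, a positive ratio was found in 2 T cell, 4 dendritic cell, 3 myeloid cell, 3 plasma cell and 0 stromal or epithelial probe sets. Jchain, at 17224 against 24903, made up most of the plasma cell sum. The near-equal T cell, dendritic cell and myeloid cell sums thus held differences of both signs. Among T cell markers, Cd4 read 146 against 40.5 (1.85) by 1419696_at, while its other probe set was below the floor on both arrays. Thy1, which the sort selected against, read 95.4 against 220 (-1.20). The non-transgenic value of Cd4 and the transgenic value of Thy1 lay under the filter. In sorted cells pooled like this, fewer cells of a type and less RNA per cell cannot be told apart, and the part of these markers in the class I values was not tested.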

How the data were processed

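RNA was measured on 1 Affymetrix array per group, labelled with biotin per the labels' protocols. The deposited values are linear intensities of the authors, 1 per probe set and array; background step, software and build are not given in the sources used here. Their mean without the highest and lowest 2% is 500.0 on both arrays, so no scaling was added, and their medians over probe sets other than controls are 93.1 (transgenic) and 104.3. Of 45101 probe sets, 64 controls were set aside, and of the rest 34945 carry 1 symbol, 932 several and 9160 none. All 25 member probe sets matched RefSeq by Entrez identifier and 0 were renamed. Values under the pooled 25th percentile were set to it before log2, and 11670 transgenic and 10836 non-transgenic values were. No detection calls were used, and having 2 arrays is what limits the precision. Named genes were every member, pathway probe sets past 2-fold and the largest ratio of each role group. Single marker genes were named after their values were seen. Members and lists were chosen with earlier results of these data known. The steps were tested on simulated arrays. Python 3.11.15, numpy 2.4.6, pandas 2.3.3 and statsmodels 0.14.6 were used. Alternatives were other scalings, floors, filters, folds and probe set choices.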

Additional observations from a re-analysis of the deposited data

How the results depend on the processing

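The median log2 ratio of the members above the filter, -0.24, was -0.072 with equal array medians, 0.038 after quantile normalization, 0.0018 after loess and -0.011 over the 7 probe sets not named _s_, _x_ or _a_, a choice that drops both B2m probe sets. It was -0.16 over the 10 not named _x_, a choice made after seeing the data, and moved by less than 0.1 under the other 6 alternatives. The count of member probe sets at least 2-fold apart, 1, was 0 after loess, with a pseudocount of 32, with both values above the filter, with a filter at the 75th percentile, under both of these choices of names and with gene means, 3 without the filter and 2 at 1.5-fold. The pathway median of 0.0028 was 0.17 with equal array medians. The count of pathway probe sets 2-fold apart, 5, was 3 with equal medians (2 of the 5, H2-T3 and Fcgrt, and Tpp2, which was higher), 3 with the pseudocount or with the filter at the 75th percentile, 8 without the filter, 2 with gene means and 15 at 1.5-fold. These pathway counts under alternatives were chosen after seeing the data. Loess values near the filter rest on probe sets that passed by 1 array only. The cause of these shifts was not tested. No paired analysis was possible because each group has 1 array. With 1 array per group, no sample could be left out.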
